A study of Mus musculus with 8 samples.

Results

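The bone morphogenetic protein (BMP), growth differentiation factor (GDF) and activin pathway was examined in skeletal cells sorted from mouse fracture callus. Its members were chosen by gene symbol alone, and 50 of the 18193 genes with a probe set of their own qualified, through 97 probe sets. They comprise 20 ligand genes, 9 receptors, 9 antagonists, 8 Smads and 4 Id genes. The samples were 4 arrays of skeletal stem cells (SSCs) and 4 arrays of the bone, cartilage and stromal progenitors downstream of them (BCSPs). Each of 4 experiments gave 1 array of each population. All cells came from male C57/Bl6 mice aged 10 to 12 weeks whose femora carried an intramedullary pin and a bicortical fracture. The labels give day 7 after fracture and 10000 sorted cells per population, while the text of the study names a later day. Both sorts took cells negative for CD45, Ter119, Tie2, Thy1 and 6C3 and positive for CD51. SSCs were in addition CD200+ and CD105-, and BCSPs CD105+. The cells were not cultured. Both populations share the fracture, so callus cells were compared with callus cells, and unfractured bone was not analysed here.

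The deposited value is an activity score that sets each probe set against the spread it shows over many public mouse arrays. It runs from about -100 (inactive) to 100 (active), and 0 is the threshold of that probe set. A gene was called active on an array where its score was above 0, and differences are given in points, SSC minus BCSP. The score ranks no gene's mRNA against that of another gene, and it levels off near both ends. Where a gene had several probe sets, the one with the highest 8-array mean stands for it. Bulk samples cannot tell fewer cells of a type from less RNA per cell.

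The sort and the arrays were checked before the members were described. All 7 skeletal marker genes with a probe set, Sox9, Col2a1, Acan, Sp7, Prrx1, Pdgfra and Col1a1, were active on all 8 arrays. None of the 12 endothelial genes, and among 8 macrophage genes only Laptm5, on 3 SSC arrays, was above 0 on any array. Of 5 smooth muscle and pericyte genes, Cspg4 was active on all 8 arrays, at 96.9 to 99.95, and the other 4 on none. Of the sort markers, Eng (CD105) was lower in SSCs without overlap, and Cd200 was active in both populations. Across genes, the median correlation was 0.894 (range 0.846 to 0.925) for arrays that shared an experiment. It was 0.843 (0.734 to 0.895) for arrays that shared a population and 0.838 (0.721 to 0.877) for arrays that shared neither. Between 29.0% and 31.0% of probe sets were above 0 on each array. The 95th percentile of 38 probe sets of genes of unrelated tissues (retina, liver, germ cells and others) lay between -9.53 and -2.19.

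BMPs, GDFs and activins are secreted dimers that bring type I and type II receptor kinases together. BMPs and some GDFs, such as Gdf5, signal through Smad1, Smad5 and Smad9, activins and other GDFs, such as Gdf11, through Smad2 and Smad3, and both routes use Smad4. Secreted antagonists hold the ligands away from the receptors, Smad6 and Smad7 inhibit the pathway inside the cell, and the Id genes are direct targets of BMP signalling. In the skeleton the pathway drives mesenchymal condensation, cartilage formation and bone formation, and it is required for fracture repair.

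Each role, from ligand to Id gene, had members active on all arrays of both populations, but the share differed by role. Of the 50 genes, 23 (46%) were above 0 on each of the 8 arrays, and 14 (28%) never were. The shares over all genes were 25.0% active throughout and 43.5% below 0 throughout. The median of the members' mean scores was 22.97, against -18.4 over all genes. By role, 7 of 20 ligands (35%), 3 of 9 receptors (33.3%), 4 of 9 antagonists (44.4%), 6 of 8 Smads (75%) and 3 of 4 Id genes (75%) were active on all arrays. Below 0 throughout were 45% of the ligands and 44.4% of the receptors, near the 43.5% of all genes. This held for 11.1% of the antagonists and for 0% of the Smads and Id genes. Gdf5, Bmp2, Bmp5, Acvr1, Chrdl1, Chrdl2 and Bambi never fell below a score of 90. These 7 genes are 14% of the members, while 2.71% of all genes stayed at that level.

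**Figure D1:**
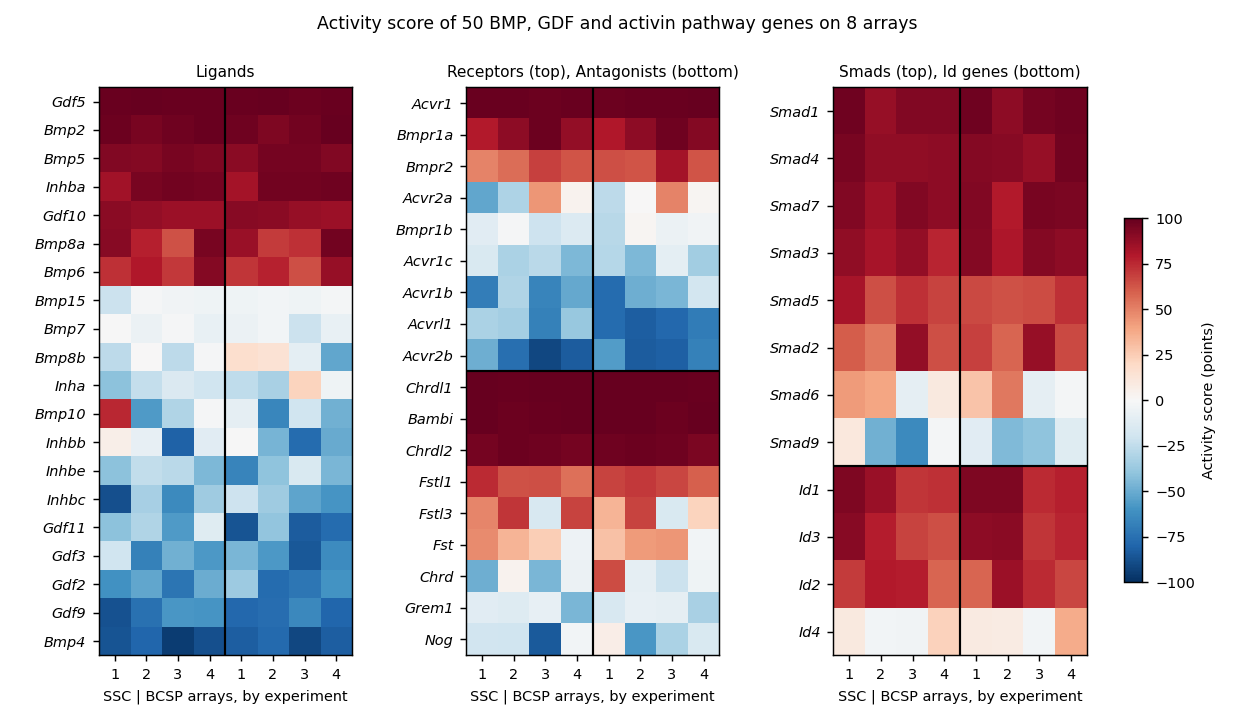
Activity score in points (colour, from -100 in blue to 100 in red) of the 50 genes (rows, ordered by mean score within each role) on the 4 SSC and 4 BCSP arrays (columns, numbered by experiment, separated by the vertical line). Gdf5, Bmp2, Bmp5, Acvr1, Chrdl1, Chrdl2 and Bambi lie at 90 or above throughout, and Bmp4 lies at -78.1 or below.

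Among the BMP ligands, Bmp2, Bmp5, Bmp6 and Bmp8a were active on every array, and Bmp4 was the lowest of the 20 ligands. Bmp2, which is needed for fractures to begin healing, scored 98.4, 94.9, 97.6 and 99.05 on the SSC arrays of experiments 1 to 4 and 97.02, 93.3, 96.7 and 99.5 on the BCSP arrays. Bmp5, whose loss gives mice short ears and altered skeletal elements, scored 92.5, 91.6, 94.9 and 93.6 in SSCs and 90.03, 95.5, 95.4 and 92.7 in BCSPs. Both genes thus stayed within a narrow band and overlapped between the populations. The other probe sets of Bmp5 were lower, 1 being active on 7 arrays and the other on 6. Bmp6 scored 78.8 ± 9.28 in SSCs and 74.97 ± 9.61 in BCSPs (SD, n = 4 each), and Bmp8a scored 81.6 ± 14.2 in SSCs and 81.5 ± 12.2 in BCSPs (SD, n = 4 each).

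Bmp4, another osteogenic ligand of the same subgroup as Bmp2, scored -86.7, -79.2, -94.8 and -88.2 on the SSC arrays and -82.8, -78.1, -90.8 and -82.8 on the BCSP arrays. Its single probe set was below 0 throughout, so the close relatives Bmp2 and Bmp4 stood at opposite ends of their own ranges. Bmp7, a ligand of kidney and skeletal development, lay just below the threshold at -21.7 to -0.31, and neither of its further probe sets reached 0 on any array. The single Bmp10 probe set, for a ligand of the heart, was above 0 on the SSC array of experiment 1 alone, at 75.04, and lay between -65.2 and -1.24 on the other 7. Bmp15, a ligand of the oocyte, was at -21.2 to -1.45, and Bmp8b was above 0 on 3 arrays.

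Of the 6 GDF genes, Gdf5 and Gdf10 were active throughout, and the other 4 never rose above 0. Gdf5, a growth factor of joints and cartilage, scored 98.5, 99.2, 98.5 and 98.9 in SSCs and 98.6, 99.3, 98.3 and 98.7 in BCSPs, close to the upper limit. Gdf10, a ligand related to Bmp3, scored 90.2, 87.5, 85.8 and 85.2 in SSCs and 91.1, 90.4, 87.1 and 85.2 in BCSPs. Gdf2, a circulating ligand made by the liver, Gdf3, a ligand of the early embryo, Gdf9, a ligand of the oocyte, and Gdf11, a regulator of axial patterning, were all below 0 on all 8 arrays.

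Of the activin and inhibin subunits, Inhba alone was active throughout. It encodes the subunit of activin A and scored 84.3, 94.7, 96.9 and 95.3 in SSCs and 83.4, 96.7, 96.6 and 97.6 in BCSPs, with the arrays of experiment 1 the lowest in each population. Its other probe set was above 0 on 2 arrays. Inha, the subunit that turns activins into inhibins, was above 0 on 1 array, the BCSP array of experiment 3, at 22.6. Inhbb was above 0 on 1 array, and Inhbc and Inhbe, subunits known from liver, on none.

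Among the receptors, Acvr1, Bmpr1a and Bmpr2, which together make type I and type II BMP receptors, were active on every array. Acvr1, a type I receptor mutated in a human disease of ectopic bone, scored 98.6, 98.6, 98.4 and 98.4 in SSCs and 97.8, 98.9, 98.5 and 99.6 in BCSPs by its highest probe set. Its other 2 probe sets were below 0 on all 8 arrays, at -79.0 to -1.36 and at -91.2 to -38.9. Bmpr1a, the main type I BMP receptor of cartilage, scored 78.9, 89.3, 98.3 and 88.02 in SSCs and 79.8, 89.5, 97.3 and 91.8 in BCSPs. Of its 6 probe sets, 4 were active on all arrays. Bmpr2 scored 49.4, 55.8, 68.04 and 62.7 in SSCs and 64.2, 62.5, 83.3 and 63.2 in BCSPs, and each BCSP array was above the SSC array of its experiment.

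The activin receptors stood lower. Acvr2a, a type II receptor for activins and BMPs, scored -52.1, -31.2, 44.1 and 3.37 in SSCs and -26.3, 0.30, 49.8 and 1.94 in BCSPs. Experiment 3 gave its highest scores and experiment 1 its lowest SSC and BCSP scores. By its second probe set experiment 3 was again the highest, but the lowest SSC score was that of experiment 4, at -15.9. Acvr1b, the type I receptor of activin, was at -76.9 to -18.8, Acvr1c at -45.2 to -10.1 and Acvr2b at -90.8 to -49.01, all below 0 on every array by the highest probe set. By a second probe set, Acvr1b reached 7.86 on the BCSP array of experiment 1 and Acvr1c 28.8 on the SSC array of experiment 1, and both were below 0 on the other 7 arrays. Bmpr1b, a type I receptor of cartilage condensations that Gdf5 favours, was above 0 on 1 array by its highest probe set, at 1.66. By a second probe set it was above 0 only on the SSC array of experiment 1, at 3.60. A score below 0 does not show that a transcript was absent.

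Antagonists ranged from members near the upper limit to members near or below the threshold. Chrdl1 and Chrdl2, chordin-like proteins that bind BMPs, scored 99.1 to 99.8 and 93.9 to 97.98 over the 8 arrays. All 4 probe sets of Chrdl1 were active on every array. Bambi, a membrane protein that resembles a type I receptor without a kinase, scored 99.6, 98.2, 98.8 and 99.4 in SSCs and 99.6, 99.2, 98.4 and 99.3 in BCSPs. Fstl1, a secreted glycoprotein related to follistatin, scored 64.3 ± 7.99 in SSCs and 66.1 ± 4.70 in BCSPs (SD, n = 4 each) and was active by both of its probe sets.

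Chordin, noggin and gremlin, by contrast, had scores mostly below 0. Nog scored -19.4, -20.2, -84.4 and -3.00 in SSCs and 6.53, -57.96, -31.4 and -15.6 in BCSPs, and 1 of these 8 values was above 0. Chrd scored -48.6, 3.60, -45.95 and -6.19 in SSCs and 65.1, -8.91, -21.3 and -4.44 in BCSPs, with the BCSP array of experiment 1 far above the other 7. Grem1 was below 0 on all 8 arrays, at -45.4 to -8.02. Each of these genes has 1 probe set in the annotation. Fst (follistatin) was active on 6 arrays and below 0 on both arrays of experiment 4, at -4.98 to 47.6 over the 8 arrays. By its second probe set Fst was above 0 only on both arrays of experiment 1, at -33.5 to 16.1 over the 8 arrays. Fstl3 was active on 6 arrays, at 49.1, 71.7, -15.9 and 67.95 in SSCs and 33.6, 67.5, -15.6 and 22.5 in BCSPs, and below 0 on both arrays of experiment 3.

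All Smads except Smad6 and Smad9 were active on every array. Smad1 scored 97.4, 87.3, 92.4 and 92.8 in SSCs and 97.3, 89.4, 95.7 and 97.03 in BCSPs, and Smad5, the other ubiquitous BMP Smad, scored 71.8 ± 7.90 in SSCs and 67.00 ± 3.99 in BCSPs (SD, n = 4 each). Of the further probe sets of Smad5, 1 was active on all arrays and the other on 5. Smad9 was below 0 on 7 arrays, with scores of -63.6 to 10.5. Of the activin Smads, Smad2 scored 66.2 ± 15.04 in SSCs and 69.9 ± 12.4 in BCSPs (SD, n = 4 each) and Smad3 83.9 ± 5.98 in SSCs and 88.4 ± 4.97 in BCSPs (SD, n = 4 each). The other 2 probe sets of Smad3 were below 0 on all 8 arrays, at -86.0 to -16.7 and at -86.7 to -41.4. Smad4, the common partner, scored 95.2, 89.05, 88.3 and 89.6 in SSCs and 91.8, 91.1, 86.9 and 96.5 in BCSPs. The inhibitory Smads differed from each other. Smad7, which blocks both routes, scored 92.9, 84.7, 92.5 and 89.5 in SSCs and 92.3, 79.03, 95.2 and 93.9 in BCSPs. Smad6, which acts mainly on the BMP route, scored 42.8, 39.6, -9.34 and 9.90 in SSCs and 28.5, 52.99, -8.70 and -2.08 in BCSPs, and was below 0 on 3 arrays of experiments 3 and 4.

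The Id genes encode inhibitors of basic helix-loop-helix transcription factors and serve as a readout of BMP signalling, although other signals also induce them. Id1 scored 93.2, 86.3, 71.2 and 73.4 in SSCs and 93.1, 93.1, 74.9 and 77.98 in BCSPs. Id3 scored 90.7, 78.4, 67.8 and 64.2 in SSCs and 89.4, 90.5, 71.3 and 76.6 in BCSPs. For Id1 and Id3 alike, each array of experiments 1 and 2 was above each array of experiments 3 and 4. Id2 scored 70.3, 79.2, 78.5 and 58.5 in SSCs and 58.2, 85.5, 74.9 and 67.1 in BCSPs, with no such order. Id4 lay near the threshold, at 9.57, -3.08, -3.38 and 22.7 in SSCs and 9.19, 8.12, -2.60 and 36.8 in BCSPs. It was highest on the arrays of experiment 4. Of its further probe sets, 1 was above 0 on both arrays of experiment 4 and the other on none.

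The stretches upstream of the Id genes are shown because these genes report the pathway's output. The RefSeq promoter table (GRCm38.p6) matched 35 of the 50 genes with 40 promoters, and held Id2, Id3 and Id4 but no entry matched for Id1. Each sequence is the 250 bases before the annotated start, 5′ to 3′ in the direction of the gene, in lower case. Capitals mark GGCGCC, a GC-rich Smad motif that reads the same on both strands, and CAGAC or GTCTG, the 2 strands of a Smad box with its flanking base. The palindrome GTCTAGAC, which contains neither of the former, and CACGTG, an E-box, were also searched and are absent from these 3 windows. Id2 lies at chr12:25096093-25096342 on the minus strand, Id3 at chr4:136143572-136143821 on the plus strand and Id4 at chr13:48260866-48261115 on the plus strand.
Id2: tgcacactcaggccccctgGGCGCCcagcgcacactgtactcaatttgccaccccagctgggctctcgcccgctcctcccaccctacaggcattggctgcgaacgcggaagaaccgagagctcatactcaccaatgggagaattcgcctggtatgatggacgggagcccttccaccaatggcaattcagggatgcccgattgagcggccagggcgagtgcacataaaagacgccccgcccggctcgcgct
Id3: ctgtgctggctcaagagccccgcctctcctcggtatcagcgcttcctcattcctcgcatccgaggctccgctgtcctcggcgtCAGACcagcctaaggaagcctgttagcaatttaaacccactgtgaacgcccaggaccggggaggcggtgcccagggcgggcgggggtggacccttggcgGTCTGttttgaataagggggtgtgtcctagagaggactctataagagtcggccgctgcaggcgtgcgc
Id4: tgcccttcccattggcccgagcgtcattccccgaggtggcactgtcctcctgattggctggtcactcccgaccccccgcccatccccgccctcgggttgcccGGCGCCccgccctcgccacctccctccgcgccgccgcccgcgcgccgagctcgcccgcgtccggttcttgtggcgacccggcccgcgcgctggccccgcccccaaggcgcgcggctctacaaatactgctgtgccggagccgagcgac
Id2 and Id4 each held 1 GGCGCC and no Smad box of these letters, whereas Id3 held 1 CAGAC and 1 GTCTG and no GGCGCC. Over 32851 mouse promoter windows of the same length, 9.59% held GGCGCC and 42.2% held CAGAC or GTCTG. Among the 40 windows of the members, 8 held GGCGCC and 16 held CAGAC or GTCTG. Id1 and Id3, whose scores ran in parallel, could not be compared in sequence. A match is a run of letters and was not tested as a site.

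The populations were compared to ask whether SSCs and BCSPs differ in the pathway. In limma (Benjamini-Hochberg adjustment over all genes) 0 of 50 members passed an adjusted p under 0.05 in either direction, and 0% of all genes did. At an unadjusted p under 0.05 there were 2 members, Acvrl1 and Gdf11, where 2.56% of all genes reached that level. The methods' t-test also gave Acvrl1 and Gdf11 without adjustment, and no member with it. The members' differences had a median of -0.504 points, with 19 above 0 and 31 below, and the median over all genes was -0.998 points. The difference of each of the 23 members active on all arrays was smaller than 10 points, the largest being that of Bmpr2 at -9.31 points (95% confidence interval -23.9 to 5.27). For Bmpr2 leaving out the BCSP array of experiment 3 gave -4.31 points, and leaving out the SSC array of experiment 1 gave -6.12 points. A missed threshold does not show that the populations are alike, and for genes near the upper limit the score leaves little room to differ. For Bmp6 the interval ran from -9.78 to 17.4 points, and for Id1 from -17.9 to 10.4 points. These intervals come from a fit that does not pair the arrays of an experiment, so they include the spread between experiments. Within experiments, the difference was 1.38 to 6.62 points for Bmp6 and -6.81 to 0.10 points for Id1. Limma with the experiment as a block gave unadjusted p = 0.0882 and 0.0742 (adjusted p = 0.928 for both).

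**Figure D2:**
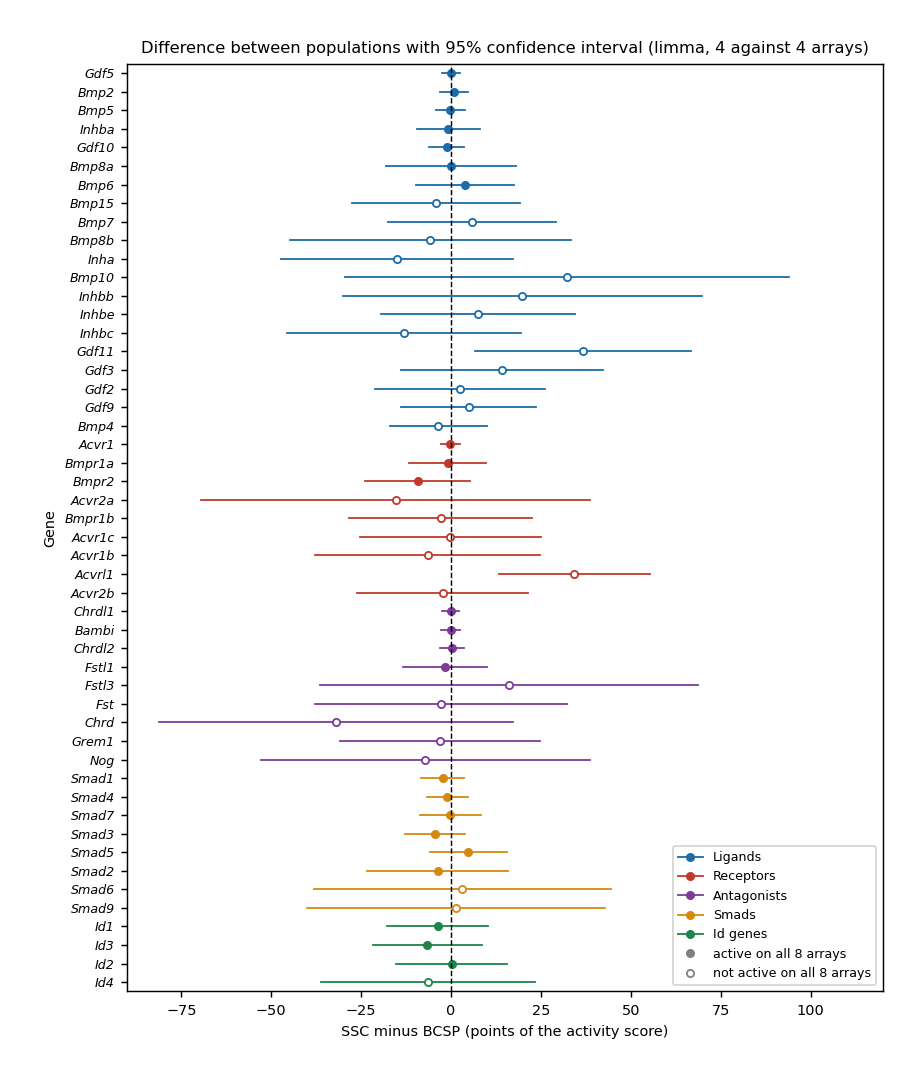
Difference between SSCs and BCSPs (points of the activity score, SSC minus BCSP) for the 50 genes. Lines give the 95% confidence interval from limma over 4 against 4 arrays, without pairing by experiment. Colours give the role, and filled points mark genes active on all 8 arrays; intervals of Acvrl1 and Gdf11 lie to the right of 0 without adjustment for the number of genes.

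Acvrl1 was the 1 member whose SSC and BCSP scores did not overlap. Of all genes, 1.34% did not overlap in either direction, and 0.544% with SSCs higher. It encodes ALK1, a type I receptor best known from endothelial cells. It scored -31.6, -33.7, -67.5 and -37.8 on the SSC arrays and -77.2, -82.3, -78.5 and -69.7 on the BCSP arrays. SSCs were higher in each experiment, by 11.1 to 48.6 points, and by 34.3 points on average (95% confidence interval 13.2 to 55.4, limma, unadjusted p = 0.00513, adjusted p = 1). An exact two-sided permutation test of 4 against 4 arrays gave p = 0.0286, which is the smallest it allows and follows from the lack of overlap. Exchanging arrays within experiments gave an exact p = 0.125, again the smallest possible. All 8 values were below the 95th percentile of the genes of unrelated tissues. The second Acvrl1 probe set overlapped between the populations, with means of -76.04 and -77.1 for SSCs and BCSPs, and the average of both probe sets no longer separated them.

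Eng, the co-receptor that works with ALK1, encodes the CD105 of the sort, so its difference is not independent of the gate. The gate reads surface protein, and the score reads mRNA. Eng scored -29.4, -43.9, -64.4 and -44.6 in SSCs and 50.1, -0.37, 2.67 and -1.02 in BCSPs. Its second probe set was also without overlap but below 0 throughout, at -87.3 to -64.7 in SSCs and -54.6 to -11.97 in BCSPs. The 12 endothelial marker genes were below 0 on all 8 arrays, and their summed score was -972 to -801 on the SSC arrays and -809 to -478 on the BCSP arrays. These sums lay mostly higher in BCSPs. By mean, 10 of the 12 genes were lower in SSCs, and 2, Cdh5 and Pecam1, were higher, by 28.6 and 3.36 points. Cdh5 was higher in SSCs in 4 of 4 experiments. Of the 12 genes, 2 did not overlap between the populations, both with BCSPs higher, as did 0.797% of all genes. The part of the endothelial genes in the Acvrl1 scores was not tested.

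Gdf11 scored -40.95, -29.9, -56.5 and -12.3 in SSCs and -86.7, -39.8, -82.8 and -76.7 in BCSPs. It was higher in SSCs in each experiment, by 36.6 points on average (95% confidence interval 6.55 to 66.7, limma, unadjusted p = 0.0224, adjusted p = 1), but the SSC array of experiment 3 fell below the BCSP array of experiment 2. The exact permutation p was 0.0857, and exchanging arrays within experiments gave an exact p of 0.125, the smallest possible. All 8 Gdf11 values were below the 95th percentile of the genes of unrelated tissues. Acvrl1, Gdf11 and Bmp6 were higher in SSCs in 4 of 4 experiments, and Bmp4 and Bmpr2 were higher in BCSPs in 4 of 4. Of all genes, 4.38% did the former and 8.35% the latter. Among the other members with the smallest p in their role were Bmp10, Chrd and Fstl3. Bmp10 differed by 32.2 points, Chrd by -31.9 points and Fstl3 by 16.2 points, with intervals that spanned 0. The value of Bmp10 was 6.09 points without the SSC array of experiment 1 and 49.9 points without that of experiment 2. For Fstl3 it was 6.70, 35.9 and 7.94 points without the SSC array of experiment 2, 3 or 4, and leaving out the BCSP array of experiment 2 or 3 gave 29.7 or 2.00 points. The value of Chrd was -12.7 points when the BCSP array of experiment 1 was left out, -14.9 points with array weights, and -4.62 points without both arrays of experiment 1.

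The experiments were then compared, since the median correlation was higher for arrays of the same experiment than for arrays of the same population. With the population as a term, the limma F-test between experiments called 3 of 50 members (Id1, Bmpr1a and Inhba) at an adjusted p under 0.05, against 1.37% of all genes. Their adjusted p values were 0.0471, 0.0481 and 0.0481 from limma. No member passed when any single array, or both arrays of any experiment, was left out, and none passed without the trend in eBayes or with the average of all probe sets per gene. The next were Smad2 (adjusted p = 0.0525 from limma), Bmp6 (adjusted p = 0.0547) and Bmp8a (adjusted p = 0.0747). At an unadjusted p under 0.05 there were 19 members, or 38%, and 26.7% of all genes.

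The direction differed from gene to gene. Id1 lay between 86.3 and 93.2 on the arrays of experiments 1 and 2 and between 71.2 and 78.0 on those of experiments 3 and 4. Bmpr1a was highest in experiment 3, at 98.3 and 97.3, and lowest in experiment 1, at 78.9 and 79.8. Of its further probe sets, 1 gave the same highest and lowest experiment, at 91.3 and 87.99 against 50.3 and 52.98. Inhba was lowest in experiment 1, at 84.3 and 83.4, against 94.7 to 97.6 elsewhere, whereas its second probe set was lowest in experiment 3, at -70.3 and -80.7. Smad2 reached 87.5 on both arrays of experiment 3 and lay between 52.5 and 68.0 on the others by its highest probe set. Its second probe set, also active on all arrays, ran the other way, at 43.4 and 38.9 in experiment 3 and 49.8 to 68.3 elsewhere. Bmp6 and Bmp8a were highest in experiment 4. Id3 and Smad6, chosen here after their values were seen, had the order of Id1, with Smad6 at 28.5 to 53.0 in experiments 1 and 2 and -9.34 to 9.90 in experiments 3 and 4.

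**Figure D3:**
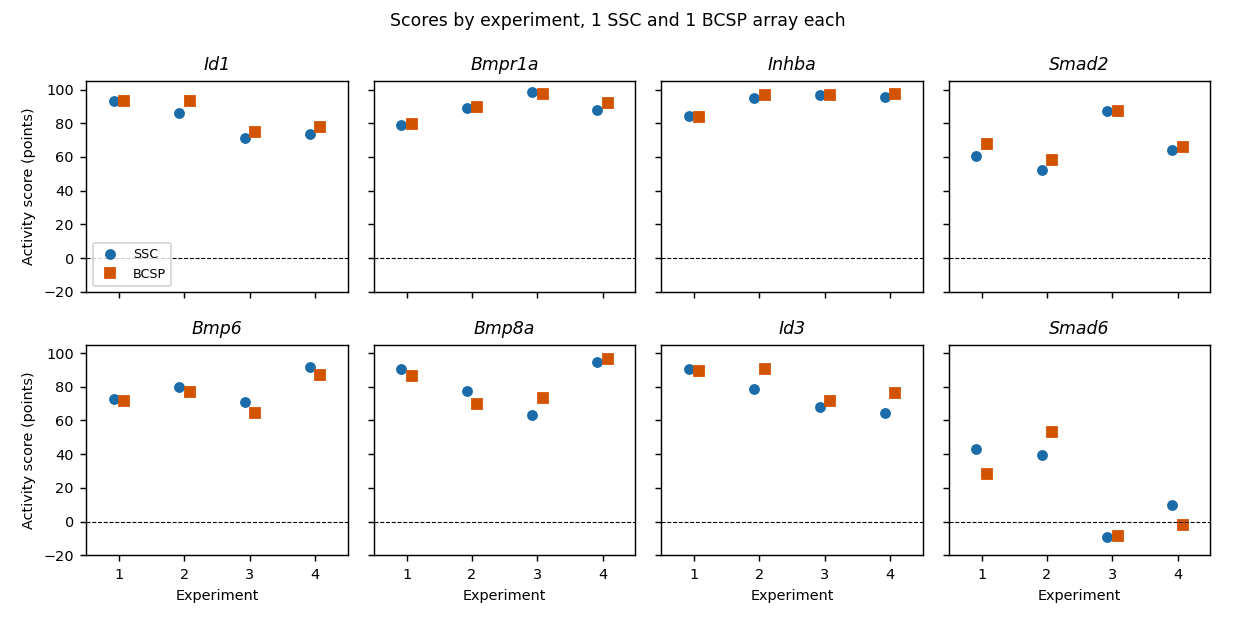
Activity score in points of 8 members by experiment, with circles for the SSC array and squares for the BCSP array of each experiment; the dashed line is the threshold of 0. Id1, Id3 and Smad6 are higher in experiments 1 and 2, and Bmpr1a and Smad2 are highest in experiment 3 by the probe set shown; the second probe set of Smad2, which is not plotted, is lowest there.

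The labels give the experiments by number only. Animals, sort, amplification and hybridization could each differ between experiments, and their parts cannot be told apart. The 3′ probe set of actin scored 59.6 and 64.9 points above the 5′ probe set on the arrays of experiment 3, and 23.1 to 44.2 points above it elsewhere. The same difference for Gapdh did not set experiment 3 apart, being 54.7 and 49.1 points there, 53.9 and 71.9 points in experiment 4, and 21.3 to 44.2 points in experiments 1 and 2. The median of the hybridization controls was 62.5 and 70.9 in experiment 1, 32.4 and 41.8 in experiment 3, and -24.2 to 3.77 in the other experiments. The part of these differences in the scores of the members was not tested.

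Probe sets of the same gene were also compared, because each gene above is described by its highest one. Of the 27 members with more than 1 probe set, 6 (Chrdl1, Fstl1, Smad1, Smad2, Smad4 and Smad7) were active by all of them on all 8 arrays. For 2 members, Acvr1 and Smad3, 1 probe set was active on all arrays and another on none, which held for 15.4% of the 9010 genes with more than 1 probe set. Counting a gene as active only where all of its probe sets were, 15 of the 50 members remained active on all arrays. The members called active by a single probe set of several, among them Acvr1 and Smad3, therefore rest on that probe set.

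**Figure D4:**
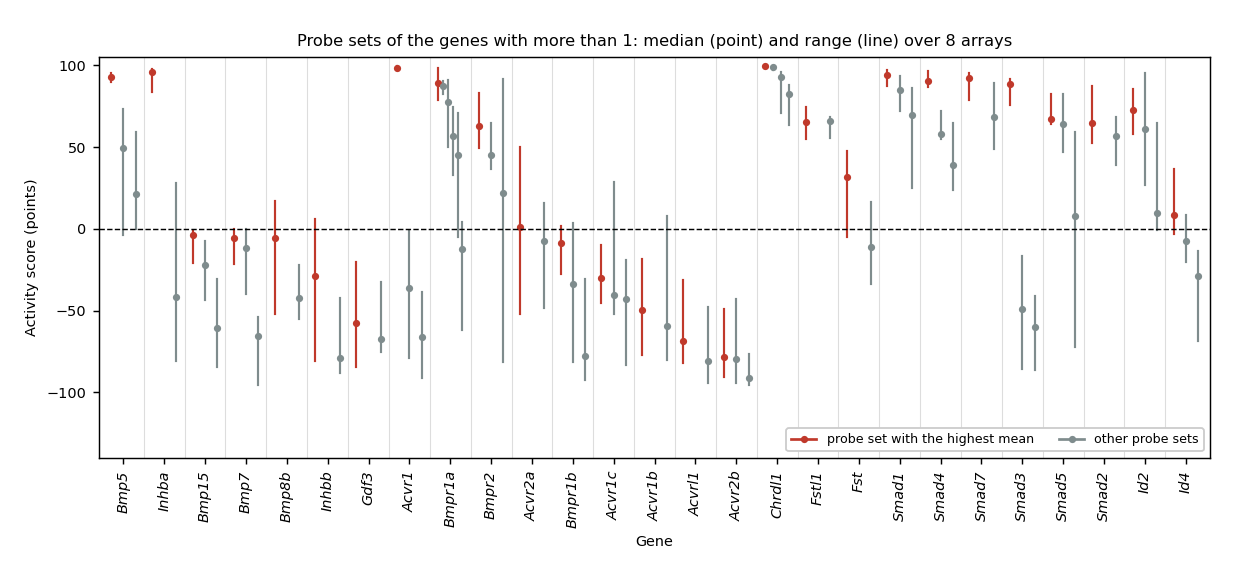
Activity score in points of the probe sets of the 27 members that have more than 1, ordered by role; points give the median and lines the range over the 8 arrays, in red for the probe set with the highest mean and in grey for the others. In Acvr1 and Smad3 the red probe set lies near the upper limit and the grey ones below 0, while the 4 probe sets of Chrdl1 all lie at 63.8 or above.

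Other genes of the pathway that are not among the 50 were read from a separate list of 52 measured genes. Of these, 17 (32.7%) were active throughout, and 18 (34.6%) were below 0 throughout, against 25.0% and 43.5% of all genes. Among ligand-processing enzymes, 4 of 6 were active on all arrays. Pcsk5 and Pcsk6, proprotein convertases, scored 98.8 to 99.6 and 85.9 to 99.03, and Bmp1, a protease that cleaves procollagen and chordin despite its name, scored 49.6 ± 24.9 in SSCs and 55.5 ± 24.2 in BCSPs (SD, n = 4 each). Among extracellular modulators 3 of 12 were active on all arrays, namely Twsg1 at 87.00 to 96.1, Bmper at 77.7 to 87.96 and Crim1 at 9.69 to 59.5. Among receptors and co-receptors this held for 1 of 9, Neo1, a receptor for repulsive guidance molecules that bind BMPs, at 93.5 to 99.1. The related ligands were lower, with 0 of 4 active on all arrays and Amh the highest by mean, at -35.7 to 34.5.

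Inside the cell, 6 of 10 regulators were active on all arrays. Pmepa1, a feedback inhibitor of activin and TGF-beta Smads, scored 94.04 to 97.9, Skil, a Smad corepressor, 79.5 to 96.8, and Smurf2, a ubiquitin ligase of the pathway, 69.4 to 91.3. Of 11 target genes, 3 were active on all arrays, among them Sox9, a regulator of cartilage, at 99.7 to 100, and Sp7, a regulator of osteoblasts, at 47.5 to 70.8. Atoh8, a BMP target, was active on 6 arrays and below 0 on both arrays of experiment 3, at 44.8, 81.8, -17.1 and 66.7 in SSCs and 89.6, 71.1, -3.33 and 30.3 in BCSPs. Limma called 0 of the 52 genes between SSCs and BCSPs, and 0% of all genes. At an unadjusted p under 0.05 there were 2, the sort marker Eng and Vwc2, a chordin-like modulator, where 2.56% of all genes reached that level. Vwc2 scored 40.6, 53.3, 19.97 and -2.29 in SSCs and -38.02, -4.32, 7.62 and -7.69 in BCSPs. Eng was the 1 gene of the list whose populations did not overlap, with BCSPs higher, as did 0.797% of all genes.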

How the data were processed

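Gene expression was measured on 8 Affymetrix mouse arrays of sorted callus cells. The authors amplified the RNA in 2 rounds and processed the arrays with Gene Expression Commons. The deposited values are activity scores per probe set, from -100.03 to 100, with a StepMiner threshold at 0, and the sources used here do not give how probes were summarised. Of 45101 probe sets, 64 controls were left out, 34958 had 1 symbol in the platform annotation, and 932 had several and were not named, among them 2 that hold a member symbol. RefSeq changed 0 symbols.

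SSCs and BCSPs were compared in R 4.3.3 with limma 3.58.1 (lmFit, then eBayes with a trend and no block), and experiments with an F-test, both with Benjamini-Hochberg adjustment over 18193 genes. The fits were run on simulated scores, with shifts larger than any member's difference and, for the populations, no experiment effect. Those runs do not show whether differences of the members' size would be detected in these arrays. The number of arrays limits the precision. The labels conflict for 1 BCSP array, numbered 3 in its title and 2 in its description, and it was taken as replicate 2 of experiment 2. Same-numbered arrays come from the same experiment by the labels, and their deviations from the group means correlated at 0.399, 0.177, 0.572 and 0.183, so the numbers pair the arrays. By the study's text the calluses came from 4 different mice, and p-values measure the spread between these arrays.

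The symbol rule that picked the members uses no score, but that rule and the lists were set with earlier results of these data known. Values on every array were given for up to 4 members per role with the highest mean, members without overlap, up to 2 per role with the smallest p between populations, members whose probe sets disagreed, and up to 6 with the smallest p between experiments. A few further members were added to describe their role. Of the other pathway genes, Eng and up to 3 per role were named. Vwc2 and further target genes were added after their values were seen. Mstn, Tsku and Runx2 were not analysed here. Alternatives were a replicate block, quantile normalization, median centring, leaving out genes never above 0, averaging or separating probe sets, eBayes with no trend, the methods' t-test, array weights, a threshold from genes of unrelated tissues, no population term, and leaving out each array. Leaving out both arrays of an experiment was added after seeing the data.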

Additional observations from a re-analysis of the deposited data

Results flagged for a closer look

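In 100 groups of 4 arrays (50 members in 2 populations), 5 groups held an array far from the other 3, where chance gives about 1 in 20. Inhba was low on both arrays of experiment 1, at 84.29 in SSCs against 94.73 to 96.87 on the other SSC arrays, and at 83.44 in BCSPs against 96.58 to 97.58. Bmpr2 was high on the BCSP array of experiment 3, at 83.34 against 62.51 to 64.19. Grem1 was low on the SSC array of experiment 4, at -45.37 against -12.89 to -8.02. Bmp15, the oocyte ligand, was low on the SSC array of experiment 1, at -21.16 against -4.23 to -1.45.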

How the results depend on the processing

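No member, and no gene at all, passed between SSCs and BCSPs under any of the 21 alternatives run, and no gene of the other pathway list did. With the experiment as a replicate block the count of members called was 0, with 3 at an unadjusted p under 0.05 (Acvrl1, Gdf11 and Bmpr2) and 949 of all genes, against 465 without the block; the pairing changed no call. Acvrl1 differed by 17.7 to 42.6 points over 20 alternatives (adjusted p 0.928 to 1), the lowest value being the average of its probe sets, and Gdf11 by 27.3 to 47.2 points, and neither gene was tested where genes never above 0 were left out. The count of members active on all arrays was 21 to 24 under the alternatives, except 15 where every probe set of a gene had to be active. The count of members called between experiments, 3, was 5 with quantile normalization, 1 with median centring, 6 without the population term, 0 without trend and 0 with the average of all probe sets per gene. It was 0 to 0 when single arrays or both arrays of an experiment were left out, which leaves fewer samples. For the other settings the cause was not tested. With the average of all probe sets per gene, the mean score of Acvr1 was -1.81 and that of Smad3 -8.32, the difference of Smad3 turned to 0.633 points, and 14 further levels moved by more than the spread between arrays; the other 534 of 550 levels run stayed within it. Scores near 100 limit what a difference can show.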
